A study of Mus musculus with 93 samples.

Results

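Metallothionein-1 (Mt1) and metallothionein-2 (Mt2) transcripts were followed in the livers of 93 male mice, with 1 Affymetrix Mouse Genome 430 2.0 array per mouse. The members are the probesets to which the platform annotation gives the symbol Mt1 or Mt2. There were 3 of them among 11412 probesets other than control probesets, 1422557_s_at and 1451612_at for Mt1 and 1428942_at for Mt2, and all passed the filter on variation that left 10349 probesets. The suffix of 1422557_s_at marks a probeset whose probes can match more than 1 transcript, so that its share of Mt2 signal is not known. WT mice were of the strain 129S1/SvImJ and mice lacking the nuclear receptor PPARα (PPARα −/−) of 129S4/SvJae, so that genotype and substrain cannot be told apart. Mice were fasted for 4 hours, given 400 µl by gavage, and killed 6 hours later. They received a triglyceride made of 1 fatty acid (C10:0, C18:1, C20:5, C22:6, C18:2 or C18:3), or a suspension of WY14643 or fenofibrate (10 mg/ml). The carrier of the agonists, carboxymethyl cellulose at 0.5%, was given alone to controls. Control mice thus received no triglyceride. A first run of 56 arrays held controls, WY14643, fenofibrate, C18:1, C20:5 and C22:6, and a later run of 37 arrays held controls of its own, C18:2, C18:3 and C10:0. Groups held 3 to 5 mice, with 3 WT controls in the first run and 4 in the later run. In the first run, mice given the carrier or WY14643 were 12 to 20 weeks old, and all other mice were 8 to 24 weeks old.

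Metallothioneins are small, cysteine-rich proteins that bind zinc, copper and cadmium. In the liver they buffer zinc, and their transcription is known to rise with free zinc through the factor MTF-1, with glucocorticoids, with interleukin-6 during the acute phase response, and with oxidative stress. Mt1 and Mt2 are the forms made in liver, whereas Mt3 is best known from brain and Mt4 from stratified epithelia. In the RefSeq annotation of the mouse (GRCm38.p6) the 4 genes lie side by side on chromosome 8, in the order Mt4, Mt3, Mt2 and Mt1, with 1 long non-coding RNA gene between Mt3 and Mt2 and none listed between Mt2 and Mt1.

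The promoters of these neighbouring genes are shown first, from 250 bases before to 50 bases after the gene start in RefSeq (GRCm38.p6, plus strand). Capitals mark matches to the core of the metal response element, searched on both strands as TGCACNC and TGCGCNC, in Mt1 at chr8:94178839-94179138 and in Mt2 at chr8:94172368-94172667.
Mt1: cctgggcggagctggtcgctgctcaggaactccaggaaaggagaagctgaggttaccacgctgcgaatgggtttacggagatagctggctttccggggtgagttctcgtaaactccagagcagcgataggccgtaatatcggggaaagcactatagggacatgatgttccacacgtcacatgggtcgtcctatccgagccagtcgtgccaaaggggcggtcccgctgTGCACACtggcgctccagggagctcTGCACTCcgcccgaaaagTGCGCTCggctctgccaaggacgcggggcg
Mt2: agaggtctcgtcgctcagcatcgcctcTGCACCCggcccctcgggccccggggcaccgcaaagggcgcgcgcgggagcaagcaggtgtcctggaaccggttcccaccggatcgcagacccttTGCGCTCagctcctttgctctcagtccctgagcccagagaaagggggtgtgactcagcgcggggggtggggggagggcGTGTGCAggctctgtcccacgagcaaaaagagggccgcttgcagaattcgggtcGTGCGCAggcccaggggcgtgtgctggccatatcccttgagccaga
The Mt1 window held 3 matches, all on the plus strand, and the Mt2 window held 4, of which 2 were on the minus strand. No matches overlapped. At least 3 such matches were found in 1.97% and at least 4 in 0.517% of 32851 mouse promoter windows of the same length. The antioxidant response element TGACNNNGC had 1 match, in Mt2 (12.4% of all windows held it). The STAT element TTCNNNGAA had no match in either window. Nor had AGAACA, a part of the glucocorticoid receptor motif, or AGGTCA, a part of the PPAR motif. Of all windows 8.3%, 19.0% and 16.3% held them. A match describes letters, not binding.

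The labels of genotype were checked on Ppara, the gene for PPARα. Of its 3 probesets 1 did not overlap between genotypes. Its log2 signal ran from 5.94 to 7.93 in 48 PPARα −/− livers and from 8.10 to 9.52 in 45 WT livers. Arrays of the first run had median signals of 136 to 145 and those of the later run 154 to 168. Treatments were therefore compared with controls from the same run and of the same genotype. Of 8 hepatocyte markers 7 were measured, with a summed signal of 58811 to 100331 over all mice. None of 5 cholangiocyte markers was measured, and 2 of 7 neutrophil, 4 of 5 sinusoidal endothelial, 5 of 6 stellate cell, 1 of 4 erythroid, 1 of 6 lymphocyte and 1 of 6 exocrine pancreas markers were. In whole liver, fewer cells of a type and less RNA per cell cannot be told apart.

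In WT livers metallothionein signal differed more between mice treated alike than nearly any other signal on the array. On the log2 scale, Mt1 (1422557_s_at) ran from 7.45 to 13.72 over 45 WT mice and from 10.67 to 13.67 over 48 PPARα −/− mice. Mt2 ran from 3.66 to 12.90 in WT and from 8.16 to 13.01 in PPARα −/− mice. The SD within groups, pooled over 10 groups, was 1.30 in WT and 0.54 in PPARα −/− mice for Mt1, and 1.82 and 0.79 for Mt2. For all probesets the median pooled SD was 0.24 in WT and 0.27 in PPARα −/− mice. The ratio of the WT to the PPARα −/− SD was 2.42 for Mt1, 2.29 for Mt2 and 1.98 for Mt1 (1451612_at), against a median of 0.90 over all probesets. For Mt1 (1422557_s_at) this ratio exceeded that of 99.9% of probesets. These ratios are given as a description, without a test. The limma fits used below assume 1 spread for all groups of a probeset. The group SD of Mt1 ran from 0.09 (PPARα −/− mice given C18:3) to 2.26 (first-run WT controls), beside a pooled SD of 0.98. That of Mt2 ran from 0.18 to 3.36 in the same groups, beside 1.38. The fits thus understate the spread of the first-run WT controls and overstate that of the narrowest groups.

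**Figure D1:**
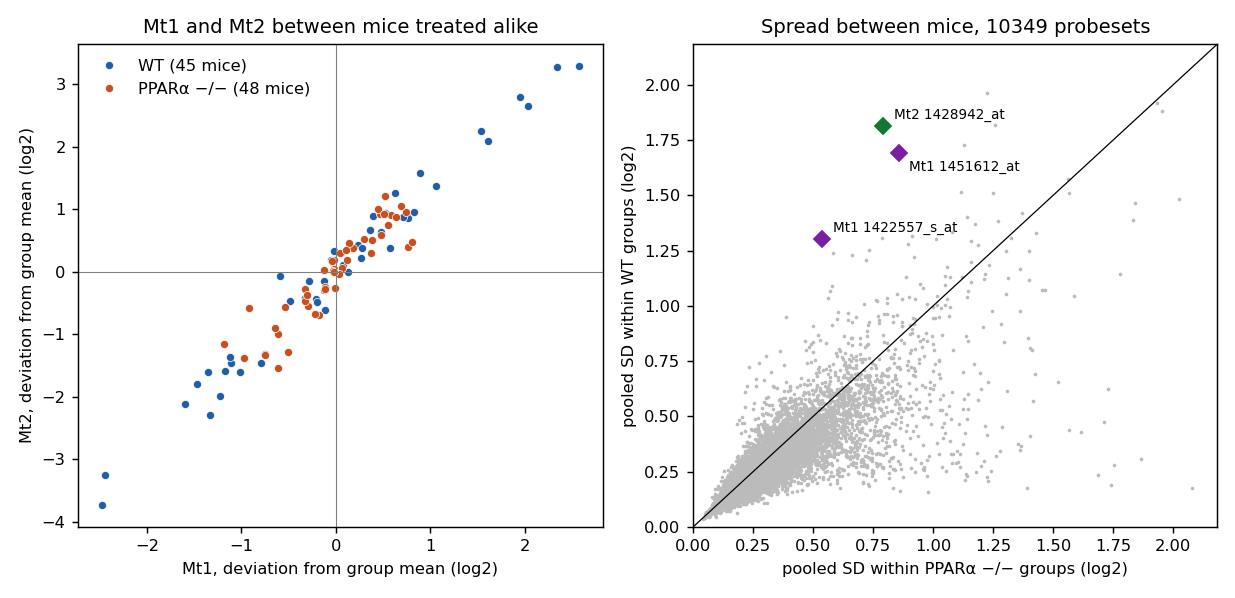
Left, deviation of each mouse from its group mean (log2 signal) for Mt1 (1422557_s_at, x axis) and Mt2 (1428942_at, y axis), 45 WT and 48 PPARα −/− mice; the points lie close to 1 line, and the WT mice reach farther out on it. Right, pooled SD within PPARα −/− groups (x axis) and within WT groups (y axis), both log2, for 10349 probesets (grey) and the 3 metallothionein probesets (diamonds); the line marks equal SD and all 3 lie above it.

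The WT controls show this spread directly. In the 3 WT controls of the first run Mt1 was 8.74, 13.17 and 11.73, and Mt2 was 5.61, 12.12 and 10.27. In the 4 WT controls of the later run Mt1 was 13.72, 8.71, 10.14 and 12.04, and Mt2 was 12.90, 6.35, 8.00 and 11.18. Thus each WT control group held both a mouse near the bottom and a mouse near the top of the range seen in WT livers, and the highest and lowest mice differed 21.5-fold in Mt1 signal in the first run and 32.3-fold in the later run. In the 5 PPARα −/− controls of the first run Mt1 was 12.35, 11.58, 12.10, 11.26 and 10.67, and in the 4 of the later run 12.78, 11.68, 10.80 and 12.67. None of these 9 mice reached down to the lowest WT controls. The control livers of the genotypes overlapped in both runs. Mt1 in PPARα −/− controls differed from WT controls by 0.38 ± 0.73 (log2, SE, limma adjusted p = 0.817) in the first run and by 0.83 ± 0.70 (adjusted p = 0.586) in the later run, and Mt2 by 0.53 ± 1.03 (adjusted p = 0.818) and 1.19 ± 1.00 (adjusted p = 0.578). At an unadjusted p of 0.05 no member passed either. Over all probesets 8.93% and 7.43% were called in these comparisons, in either direction.

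**Figure D2:**
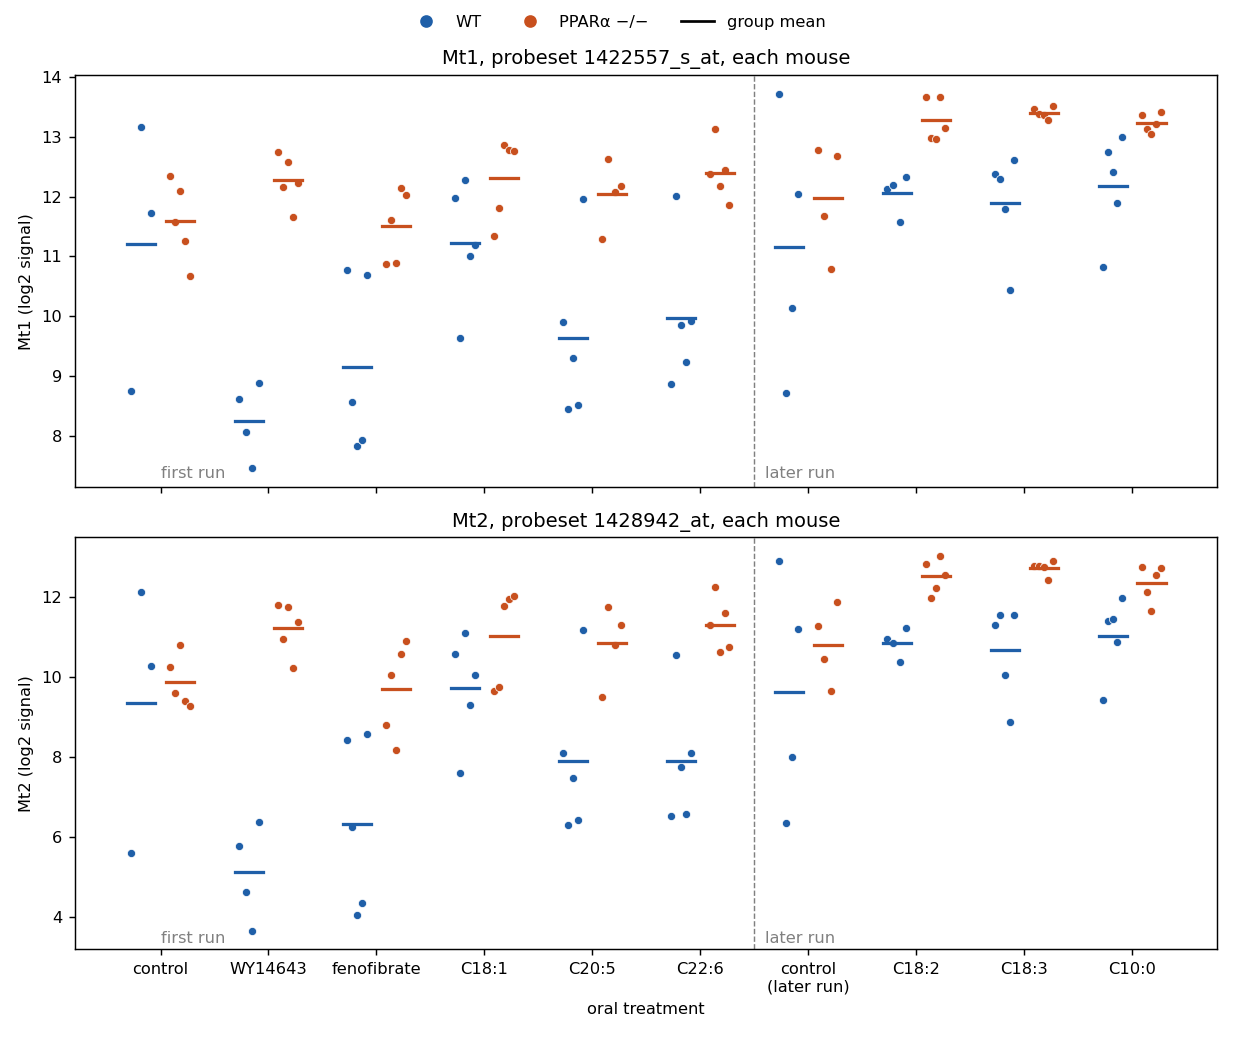
Log2 signal of Mt1 (1422557_s_at, upper panel) and Mt2 (1428942_at, lower panel) in each of 93 mice by oral treatment (x axis), WT in blue and PPARα −/− in orange, with the group mean as a bar; the dashed line divides the first from the later run. The WT controls span most of the WT range, the 4 WT mice given WY14643 all lie at the bottom of it, and the PPARα −/− groups of the later run given fat lie at the top.

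Ordered by mean Mt1 signal, the 20 groups ran from PPARα −/− mice given C18:3 (13.41 ± 0.09, SD, n = 5) to WT mice given WY14643 (8.25 ± 0.63, SD, n = 4). The first 6 places were held by PPARα −/− groups, given C18:3, C18:2, C10:0, C22:6, C18:1 and WY14643, and 8 of the first 10 groups were PPARα −/−. The last 7 were WT groups, namely C18:1 (11.22 ± 1.04, n = 5), both sets of controls, C22:6 (9.97 ± 1.22, n = 5), C20:5 (9.63 ± 1.44, n = 5), fenofibrate (9.16 ± 1.47, n = 5) and WY14643. Of 19 gaps between neighbouring means, 1 exceeded the pooled SD of 0.98, that of 1.18 between the WT controls of the later run and WT mice given C22:6. For Mt2, 2 of 19 gaps exceeded the pooled SD of 1.38. The order crosses the runs, which differ in median signal, and is a description.

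WY14643 and fenofibrate, synthetic ligands of PPARα, were each followed by lower metallothionein signal in WT livers. In the 4 WT mice given WY14643, Mt1 was 8.61, 8.05, 7.45 and 8.88, and Mt2 was 5.78, 4.63, 3.66 and 6.37. In the 5 given fenofibrate, Mt1 was 10.77, 8.57, 7.82, 7.92 and 10.69, and Mt2 was 8.42, 6.25, 4.04, 4.33 and 8.56. All 4 mice given WY14643 lay below the 2 higher controls, but the highest of them lay above the lowest control, so that the groups overlapped. Of the mice given fenofibrate 3 lay at the level of that lowest control or below it in Mt1, and 2 lay between the controls. With WY14643, Mt1 fell by 2.97 ± 0.76 (log2, SE, 7.81-fold, limma adjusted p = 0.00179) and Mt2 fell by 4.22 ± 1.08 (18.7-fold, adjusted p = 0.00166). With fenofibrate, Mt1 fell by 2.06 ± 0.73 (4.16-fold, adjusted p = 0.0467) and Mt2 fell by 3.01 ± 1.03 (8.07-fold, adjusted p = 0.0384). Mt2 was under the 10th percentile of the array in 2 of 4 mice given WY14643 and 2 of 5 given fenofibrate. The size of its folds is therefore uncertain. The other Mt1 probeset, 1451612_at, fell by 3.28 ± 1.02 with WY14643 (adjusted p = 0.0106) and by 3.10 ± 0.97 with fenofibrate (adjusted p = 0.0216), but 4 of 4 and 4 of 5 of these mice were under the 10th percentile of their array, where a fold change has little meaning. Thus 3 of 3 probesets were called lower with each agonist, where 14.1% of all probesets were with WY14643 and 6.08% with fenofibrate.

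These falls rest on few control mice, whose spread was far above the pooled one. When only the groups compared were fitted, Mt1 and Mt2 were not called with either agonist (values in the closing section). By exact permutation of the 3 controls and the treated mice (two-sided), Mt1 had p = 0.0571 with WY14643 and 0.143 with fenofibrate, and Mt2 had 0.0857 and 0.161. The smallest p that so few mice allow is 0.0286 with WY14643 and 0.0179 with fenofibrate. Without WT control replicate 2, the highest control, Mt1 was lower by 1.99 with WY14643 (value -1.99, adjusted p = 0.0737) and Mt2 by 2.83 (value -2.83, adjusted p = 0.0714), neither of them called. With fenofibrate the values were then -1.08 (adjusted p = 0.455) and -1.62 (adjusted p = 0.419). Without WT control replicate 1, the lowest control, Mt1 was at -4.20 with WY14643 (adjusted p = 4.05e-05) and at -3.295 with fenofibrate (adjusted p = 0.00176), and without replicate 3 at -2.705 (adjusted p = 0.0169) and -1.80 (adjusted p = 0.186). The calls of 1451612_at were lost without replicate 2 and without replicate 3, with both agonists.

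In PPARα −/− livers neither agonist was followed by a called change. After WY14643, Mt1 was 12.75, 12.17, 12.58, 11.66 and 12.23, and Mt2 was 11.79, 10.93, 11.73, 10.21 and 11.38. After fenofibrate, Mt1 was 10.87, 11.62, 10.90, 12.14 and 12.03. The groups overlapped with their controls. Mt1 differed from control by 0.69 ± 0.63 with WY14643 (adjusted p = 0.937) and by -0.08 ± 0.63 with fenofibrate (adjusted p = 0.994), and Mt2 by 1.35 ± 0.89 (adjusted p = 0.886) and -0.17 ± 0.89 (adjusted p = 0.991). Over all probesets, 0% were called with WY14643 and 0.0773% with fenofibrate in PPARα −/− mice. The difference between the genotypes in the response, PPARα −/− change minus WT change, was called for WY14643, with 3.65 ± 0.99 for Mt1 (limma adjusted p = 0.00529), 5.57 ± 1.40 for Mt2 (adjusted p = 0.00254) and 4.59 ± 1.32 for 1451612_at (adjusted p = 0.00953). This was 3 of 3 members, beside 8.38% of all probesets called in that direction. For fenofibrate the difference was 1.98 ± 0.96 for Mt1 (adjusted p = 0.232) and 2.85 ± 1.36 for Mt2 (adjusted p = 0.222). Without WT control replicate 2 the difference for WY14643 was no longer called for Mt1 (2.68, adjusted p = 0.0705) or 1451612_at (3.75, adjusted p = 0.0647) and was for Mt2 (4.18, adjusted p = 0.0427). Without replicate 3 it was no longer called for 1451612_at (3.85, adjusted p = 0.0592). Without replicate 1 the fenofibrate differences passed, at 3.215 for Mt1 (adjusted p = 0.0301) and 4.71 for Mt2 (adjusted p = 0.0216).

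**Figure D3:**
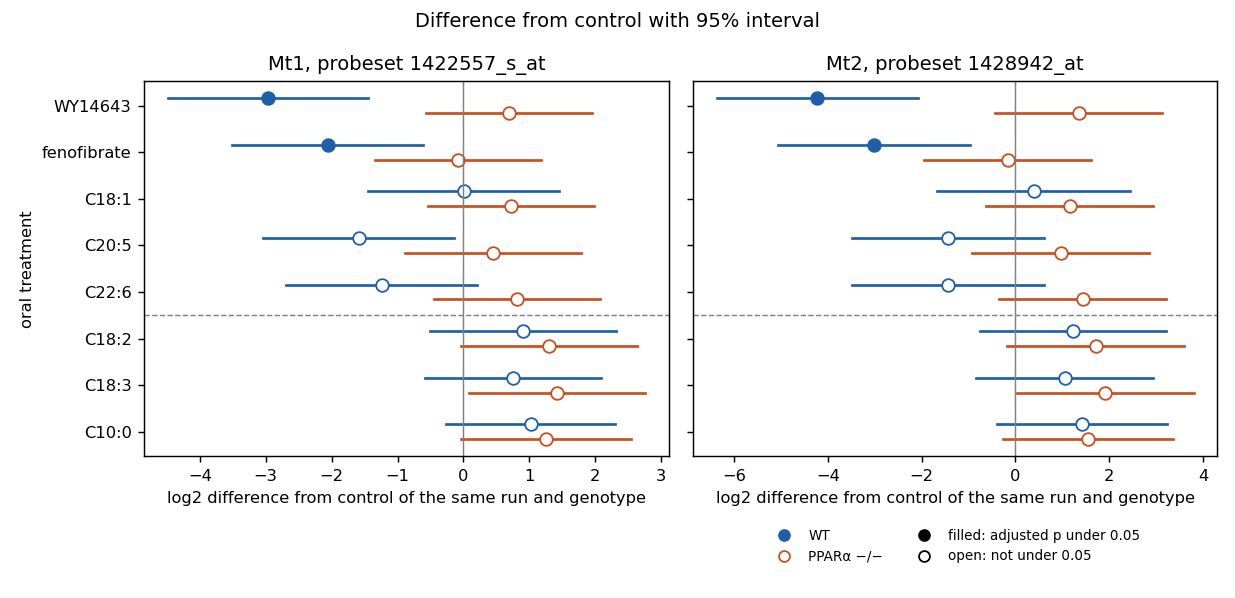
Log2 difference from the control of the same run and genotype (x axis) with its 95% interval for Mt1 (left) and Mt2 (right) by oral treatment (y axis), WT in blue and PPARα −/− in orange; filled points have an adjusted p under 0.05, and the dashed line divides first-run (above) from later-run treatments. The filled points are WT mice given WY14643 and fenofibrate, with Mt1 at -2.97 and -2.06.

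The same agonist groups can be set against each other without the controls, as PPARα −/− against WT mice given the same treatment. This comparison was added after the values were seen. After WY14643 every PPARα −/− mouse lay above every WT mouse for each of the 3 probesets, and Mt1 differed by 4.03 ± 0.67 (limma adjusted p = 6.76e-07) and Mt2 by 6.10 ± 0.95 (adjusted p = 1.43e-07). After fenofibrate Mt1 did not overlap between genotypes and differed by 2.36 ± 0.63 (adjusted p = 0.00192), while Mt2 overlapped and differed by 3.38 ± 0.89 (adjusted p = 0.00166). After C22:6 Mt1 overlapped and Mt2 did not, and Mt1 differed by 2.43 ± 0.63 (adjusted p = 0.0015) and Mt2 by 3.40 ± 0.89 (adjusted p = 0.00169). After C20:5 both overlapped, and they differed by 2.42 ± 0.67 (adjusted p = 0.00689) and 2.94 ± 0.95 (adjusted p = 0.0239). In all of these 4 comparisons 3 of 3 probesets were called higher in PPARα −/− mice, where 27.8% of all probesets were after WY14643, 20.3% after fenofibrate, 18.1% after C22:6 and 6.98% after C20:5. The share of all probesets without overlap between genotypes was not counted here, so that the lack of overlap is a description only. After C18:3, where 15.1% were, 1451612_at was called (3.06 ± 0.84, adjusted p = 0.00375), although 1 of the 5 WT mice was under the 10th percentile of its array, and Mt1 (1422557_s_at) and Mt2 were not (adjusted p = 0.0632 and 0.0739). No member was called after C18:1, C18:2 or C10:0, where 7.96%, 5.94% and 5.45% of probesets were. Set against the difference between the control livers, which is the genotype difference in response given above, the Mt1 contrast after WY14643 was larger by 3.65 ± 0.99 (adjusted p = 0.00529). After fenofibrate the Mt1 contrast was larger by 1.98 ± 0.96, after C22:6 by 2.05 ± 0.96 and after C20:5 by 2.04 ± 0.99, none of them called (adjusted p = 0.232, 0.239 and 1.00). The Mt2 contrasts were larger by 2.85, 2.87 and 2.41, and none was called. Genotype and substrain cannot be told apart in any of these.

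Markers of several cell types were also higher in PPARα −/− mice in part of these comparisons. Of 10 Kupffer cell and macrophage markers, all measured, 6 were higher in PPARα −/− than in WT livers after WY14643, 8 after fenofibrate, 10 after C22:6 and 2 after C20:5. After C18:1, where no metallothionein probeset was called, 7 were, and none was called between the control livers. The summed signal of these macrophage markers ran from 402 to 4335 over PPARα −/− mice and from 688 to 2382 over WT mice. Its median in PPARα −/− and WT mice was 2157 and 1124 after WY14643. In controls it was already 2189 and 1146 in the first run, and 2118 and 1212 in the later run. Of 2 measured neutrophil markers 1, 0, 2 and 0 were higher in those 4 comparisons. Of 7 hepatocyte markers 3, 2, 1 and 1 were higher in PPARα −/− mice in those 4 comparisons, with medians between -0.002 and 0.111 (log2). Over all probesets 27.8%, 20.3%, 18.1% and 6.98% were called higher there, and 7.96% after C18:1. Markers of other cells were also higher after WY14643, by median summed signal in PPARα −/− and WT mice. Stellate cell markers were at 1839 and 1183, sinusoidal endothelial markers at 701.5 and 516.8, and Alas2 (erythroid) at 621.9 and 390.9. In first-run controls these were 1632 and 1363, 725.2 and 673.5, and 702.3 and 399. The part of these cells in the metallothionein signal was not tested. Against control, WY14643 and fenofibrate in WT mice left all 10 macrophage markers and both measured neutrophil markers, S100a8 and S100a9, uncalled.

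C20:5 and C22:6, the fatty acids of fish oil, gave lower means than control in WT mice without a call. After C20:5, Mt1 was 9.90, 8.45, 9.30, 8.52 and 11.96, and after C22:6 it was 8.85, 12.01, 9.85, 9.23 and 9.92. In each group 1 mouse stood above the other 4, and the groups overlapped with the controls. Mt1 differed from control by -1.59 ± 0.73 with C20:5 (95% interval -3.04 to -0.14, adjusted p = 0.472) and by -1.24 ± 0.73 with C22:6 (interval -2.69 to 0.21, adjusted p = 0.385), and Mt2 by -1.44 ± 1.03 with each (adjusted p = 0.765 and 0.512). After C18:1, Mt1 was 11.99, 9.63, 12.28, 11.00 and 11.20, and the difference from control was 0.01 ± 0.73 (interval -1.45 to 1.46, adjusted p = 0.999). Over all probesets 0% were called with C18:1, 0.560% with C20:5 and 5.77% with C22:6 in WT mice, in either direction. Without WT control replicate 1, C22:6 was called for Mt1 at -2.48 (adjusted p = 0.0474), and so was its difference between genotypes (3.29, adjusted p = 0.0338, against 2.05 ± 0.96 and 0.239 with all controls). Without replicate 2 Mt1 was at -0.26 with C22:6 (adjusted p = 0.923). At an unadjusted p under 0.05, Mt1 passed with C20:5 by both probesets and with C22:6 by 1451612_at. That probeset was under the 10th percentile of the array in 3 of 5 WT mice given C20:5 and 4 of 5 given C22:6. In PPARα −/− mice the 3 triglycerides gave Mt1 differences of 0.72 ± 0.63 with C18:1, 0.45 ± 0.67 with C20:5 and 0.81 ± 0.63 with C22:6, none of them called, where 1.13%, 0.0580% and 14.3% of all probesets were.

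The triglycerides of the later run stood above their controls in PPARα −/− livers. After C18:3, Mt1 in the 5 PPARα −/− mice was 13.47, 13.39, 13.37, 13.28 and 13.53, the narrowest group of all with an SD of 0.09. After C18:2 it was 13.66, 12.99, 12.96, 13.67 and 13.16, and after C10:0 it was 13.37, 13.13, 13.06, 13.22 and 13.42. All 15 mice lay above the 4 controls, whose highest was 12.78. Mt1 differed from control by 1.42 ± 0.67 with C18:3 (2.68-fold, limma adjusted p = 0.16), 1.30 ± 0.67 with C18:2 (2.47-fold, adjusted p = 0.382) and 1.26 ± 0.65 with C10:0 (2.39-fold, adjusted p = 0.232), so that none was called. The exact permutation test gave p = 0.00794 for each, the smallest that 126 arrangements allow, and 0.0423 after Benjamini-Hochberg adjustment over the 16 comparisons of this probeset. For Mt2, the values after C18:3 were 12.78, 12.75, 12.73, 12.41 and 12.90, against 11.27, 10.43, 9.64 and 11.86 in controls, and the difference was 1.91 ± 0.95 (adjusted p = 0.187, exact permutation p = 0.00794, adjusted 0.0635). Mt2 did not overlap with controls after C18:2 either (1.71 ± 0.95, adjusted p = 0.429) and overlapped after C10:0 (1.55 ± 0.91, adjusted p = 0.309).

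Whether such a lack of overlap is common can be read from all probesets. Every treated PPARα −/− mouse lay above every control for 2.07% of probesets with C18:2, 4.73% with C18:3 and 3.51% with C10:0. This held for 2 of 3 metallothionein probesets with C18:2, 3 of 3 with C18:3 and 2 of 3 with C10:0. With limma, 0.358% of probesets were called with C18:2 in either direction, and 6.12% were called higher with C18:3 and 3.49% with C10:0. In WT mice of the later run all 14 treated mice had Mt1 between 10.43 and 13.01, within the range of the 4 controls, and the differences were 0.91 ± 0.70 with C18:2, 0.75 ± 0.67 with C18:3 and 1.02 ± 0.65 with C10:0 (adjusted p = 0.68, 0.714 and 0.496). There 0.464%, 3.41% and 1.59% of all probesets were called in either direction.

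Triglycerides of the same run were also compared with each other, as were WY14643 and fenofibrate, in 14 pairs. They share the volume and time, and differ in chain length and number of double bonds. No pair was called for any member by limma over all probesets, where 0% to 4.29% of probesets were called per pair, and none passed over the 14 pairs. At an unadjusted p under 0.05, C20:5 and C22:6 each passed against C18:1 in WT mice for at least 1 probeset. Mt1 (1422557_s_at) after C20:5 was lower than after C18:1 by a difference of -1.59 ± 0.63 (interval -2.85 to -0.34, adjusted p = 0.225, and 0.193 over the pairs), and after C22:6 by -1.25 ± 0.63 (interval -2.50 to 0.01, adjusted p = 0.304, and 0.362 over the pairs). With array weights, which give variable arrays less weight, both passed, at -2.27 (adjusted p = 0.00168) and -1.57 (adjusted p = 0.0481), and Mt2 passed for C20:5 (-2.70, adjusted p = 0.00944). C22:6 against C20:5 gave 0.35 ± 0.63 (interval -0.91 to 1.60). In PPARα −/− mice C18:3 against C18:2 gave 0.12 ± 0.63 (interval -1.14 to 1.38) and C18:3 against C10:0 gave 0.17 ± 0.61 (interval -1.04 to 1.38). WY14643 against fenofibrate in WT mice, at one dose, gave -0.91 ± 0.67 for Mt1 (interval -2.24 to 0.43, adjusted p = 0.64) and -1.21 ± 0.95 for Mt2 (interval -3.10 to 0.67, adjusted p = 0.67). The Mt1 interval for C20:5 against C18:1 in WT mice held lower values only, although the pair was not called. The other intervals given here leave room for differences of either sign, some of them of several-fold size.

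Mt1 and Mt2 varied together from mouse to mouse. Deviations from the group mean of Mt1 (1422557_s_at) and Mt2 correlated with Pearson's r = 0.975 and Spearman's rho = 0.965 over 93 mice (permutation p = 1.0e-05 for each, the smallest that 100000 resamples give; adjusted 1.3e-05 over 9 correlations). Within runs r was 0.977 (rho 0.965, 56 mice) in the first and 0.977 (rho 0.954, 37 mice) in the later, and without the 2 mice farthest from the median of Mt1 it was 0.971. The other Mt1 probeset, 1451612_at, correlated with Mt2 with r = 0.823 (rho 0.802) and with 1422557_s_at with r = 0.776 (rho 0.727). A probeset that picks up the other transcript would also give such a correlation, and its share was not tested.

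The zinc transporters fell in part. Of a list of 27 genes (zinc exporters of the Slc30 family, importers of the Slc39 family, Mtf1, Mt3 and Mt4) 14 were measured. Mtf1, Mt3 and Mt4 were not analysed here. In WT mice 0 rose and 5 fell with WY14643, and 0 rose and 4 fell with fenofibrate, with list medians of -0.363 and -0.185 (log2) where all genes had -0.078 and -0.049. Over all probesets 14.1% and 6.08% fell. The 3 largest falls were those of Slc39a14, a zinc and iron importer of hepatocytes that is known to rise with interleukin-6 (-1.40 ± 0.29 with WY14643, adjusted p = 8.61e-05 and -1.26 ± 0.27 with fenofibrate, adjusted p = 0.000492), Slc30a5, which loads zinc into the secretory pathway (-0.77 ± 0.21, adjusted p = 0.00306 and -0.86 ± 0.20, adjusted p = 0.0011), and, with WY14643, Slc39a4, the importer of dietary zinc in gut (-0.56 ± 0.21, adjusted p = 0.0374). With fenofibrate the third was Slc39a7, which releases zinc from the endoplasmic reticulum (-0.46 ± 0.16, adjusted p = 0.0403). Without WT control replicate 2, 1 member of the zinc and metal response list fell with WY14643 and 0 with fenofibrate, and without replicate 3 it was 3 and 2. Slc30a1, the zinc exporter of the plasma membrane and a target of MTF-1 like the metallothioneins, was near its control level in WT mice given WY14643 (-0.04 ± 0.18, adjusted p = 0.903). Slc30a1 rose with C18:2 in WT mice (0.72 ± 0.17, adjusted p = 0.0286) and with C18:3 in PPARα −/− mice (0.64 ± 0.16, adjusted p = 0.0063). In PPARα −/− mice Slc39a14 rose with C18:3 (1.04 ± 0.25, adjusted p = 0.00462) and C10:0 (0.99 ± 0.25, adjusted p = 0.00773), and was at 0.93 ± 0.25 with C18:2 (adjusted p = 0.0567). Of the 14 measured list genes 2 rose and 1 fell with C18:3 in these mice. With C10:0 1 rose and 1 fell, and with C18:2 0 rose and 0 fell. Over all probesets 6.12%, 3.49% and 0.242% rose.

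With the agonists in WT mice, the list in which most members moved with the metallothioneins was that of interleukin-6 signalling and acute phase proteins. Of its genes 25 of 25 were measured. In WT mice 17 fell and 0 rose with WY14643 (list median -0.848), and 11 fell and 0 rose with fenofibrate (median -0.653), where 14.1% and 6.08% of all probesets fell. The largest falls with WY14643 were those of Lcn2, the siderophore-binding lipocalin (-4.29 ± 1.23, adjusted p = 0.00535), and of the serum amyloids Saa2 (-3.83 ± 1.11, adjusted p = 0.00589) and Saa1 (-3.22 ± 0.83, adjusted p = 0.0019). With fenofibrate Lcn2 was at -3.66 ± 1.17 (adjusted p = 0.0253), Saa2 at -3.64 ± 1.06 (adjusted p = 0.0123) and Saa1 at -2.85 ± 0.79 (adjusted p = 0.00831). In PPARα −/− mice 10 members of the interleukin-6 and acute phase list rose with C10:0, 3 with C18:3 and 1 with C18:2, and 0 fell. Over all probesets 3.49% rose with C10:0, 6.12% with C18:3 and 0.242% with C18:2, so that 3 of 25 with C18:3 is not far from the share of all probesets. Lcn2 rose by 3.35 ± 1.07 with C10:0 (adjusted p = 0.0411). These counts rest on the same controls as the metallothioneins. Without WT control replicate 2, 7 members of interleukin-6 and acute phase fell with WY14643 and 1 with fenofibrate, and without replicate 3 it was 16 and 7.

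In WT mice given the agonists, the other lists had counts nearer those of all probesets. Of all probesets 12.5% rose and 14.1% fell with WY14643, and 7.39% rose and 6.08% fell with fenofibrate. Of 20 measured glucocorticoid response genes 3 rose and 1 fell with WY14643 in WT mice, and 1 rose and 2 fell with fenofibrate. Those that rose most were the stress gene Gadd45b (5.42 ± 0.67 with WY14643, adjusted p = 1.36e-09 and 4.00 ± 0.64 with fenofibrate, adjusted p = 2.97e-06) and the cell cycle inhibitor Cdkn1a (3.67 ± 0.98 with WY14643, adjusted p = 0.00292). In PPARα −/− mice the glucocorticoid list stood above the share of all probesets that rose. Of its 20 measured genes 4 rose with C18:3, 3 with C10:0 and 1 with C18:2, and 0 fell. Over all probesets 6.12%, 3.49% and 0.242% rose. Fkbp5, a sensitive glucocorticoid target, rose with C10:0 (2.35 ± 0.38, adjusted p = 4.59e-05) and C18:3 (1.88 ± 0.38, adjusted p = 0.000801). Of 18 measured Nrf2 and oxidative stress genes 1 rose and 1 fell with WY14643 in WT mice, namely Nfe2l2, the gene for Nrf2 itself (0.79 ± 0.15, adjusted p = 2.72e-05), and the glutathione synthesis subunit Gclm (-0.30 ± 0.11, adjusted p = 0.0441). Nfe2l2 also rose with fenofibrate (0.88 ± 0.14, adjusted p = 5.2e-06), and fell in PPARα −/− mice with C18:3 (-0.75 ± 0.13, adjusted p = 0.000193). In those mice Hmox1, heme oxygenase, rose with C18:3 (2.83 ± 0.60, adjusted p = 0.00119). Of 17 measured copper and iron genes 2 rose and 2 fell with WY14643 and 1 rose and 1 fell with fenofibrate. Among them the metalloreductase Steap4 fell (-1.53 ± 0.39, adjusted p = 0.00172 and -1.46 ± 0.37, adjusted p = 0.00377) and Tfrc, the transferrin receptor, rose (1.19 ± 0.43, adjusted p = 0.0328 and 1.20 ± 0.41, adjusted p = 0.0405).

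The genes whose signal was most like that of Mt1 and Mt2 were ranked by Pearson's r over the 93 mice. After removal of the mean of each run and genotype, Nnmt, which methylates nicotinamide, came first for both (r = 0.742 with Mt1 and 0.754 with Mt2), and Gfra1, a receptor for glial-derived growth factors, second (0.709 and 0.734). Crp, Cyp3a13 and Ang followed for Mt1 (0.707, 0.690 and 0.687), and Pnp, Slc39a14 and Saa4 for Mt2 (0.714, 0.708 and 0.700). After removal of group means, so that differences between mice treated alike remain, Serpina3n, Lcn2, Saa1, Nnmt and Prg4 led for Mt1 (0.695, 0.685, 0.675, 0.665 and 0.663), and Fgl1, Lcn2, Nrg4, Serpina3n and Cxcl1 for Mt2 (0.670, 0.657, 0.657, 0.643 and 0.637). These r are the highest of 6232 genes and share array and liver, and are given without a test. The median gene had r between -0.045 and -0.015, and the 99th percentile lay between 0.471 and 0.540.

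The likeness is given here mouse by mouse for the WT controls. These mice were part of the ranking that chose the genes, so that their likeness is a description and no further support. In WT controls 1, 2 and 3 of the first run, Lcn2 was 3.91, 11.69 and 8.11, Saa1 was 9.52, 13.63 and 11.48, and Nnmt was 8.59, 11.65 and 9.08. In the 4 WT controls of the later run, Lcn2 was 12.38, 3.76, 4.23 and 8.59, Saa1 was 14.25, 9.72, 9.34 and 12.29, and Nnmt was 11.92, 8.25, 7.68 and 9.67. The mice with the highest Mt1, replicate 2 in the first and replicate 1 in the later run, were also highest in these genes, and the mice with the lowest Mt1 were lowest in Lcn2. In the later run Saa1 and Nnmt were lowest in replicate 3, whereas Mt1 was lowest in replicate 2. Fgl1 and Nrg4, also ranked among the most like, were instead highest in replicate 3 of the first run (12.14 and 6.24). In the later run they were highest in replicate 4 (12.53 and 6.96). With the agonists in WT mice Nnmt was at -4.48 ± 0.75 with WY14643 (adjusted p = 1.96e-06) and -4.38 ± 0.71 with fenofibrate (adjusted p = 3.96e-06).

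**Figure D4:**
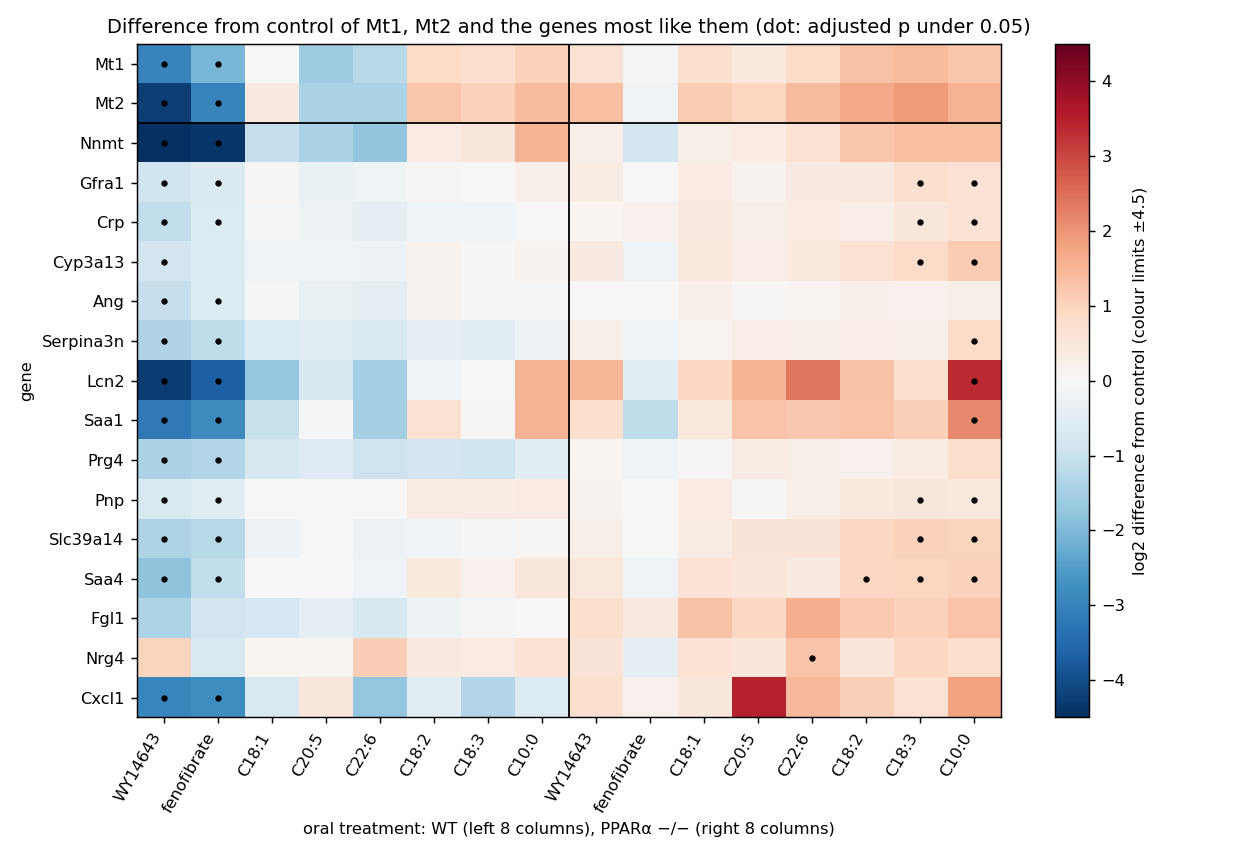
Log2 difference from the control of the same run and genotype (colour, limits ±4.5) for Mt1, Mt2 and the 15 genes with the highest correlations with them (rows) in 16 comparisons (columns, WT left and PPARα −/− right); a dot marks an adjusted p under 0.05. In the WT columns of WY14643 and fenofibrate most rows are blue. In the PPARα −/− columns most rows lie above control with every treatment except fenofibrate, C18:3 and C10:0 among them.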

How the data were processed

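Liver RNA of 93 mice was hybridised to 1 array per mouse. The deposited values are intensities on a linear scale, which the authors made with GCRMA 2.20 per the labels' processing notes, normalised between arrays and filtered for probesets that vary. Folds near background are uncertain. Log2 was taken here, 51 control probesets of 11463 were left out, and 10349 of 11412 probesets with an interquartile range of at least 0.25 were kept. Limma 3.58.1 (R 4.3.3) fitted 1 mean per group over 83 arrays, or over 93 for C10:0, with Benjamini-Hochberg adjustment over all probesets and calls at an adjusted p under 0.05 (the study used an unadjusted p under 0.01). Mice are the replicates, and exact permutation tests were two-sided. The number of arrays limits the precision. Alternatives were median centring, no variation filter, array weights, the groups compared alone, a replicate block, permutation and leaving out each mouse. Replicate numbers came from the labels and deviated together in all 5 pairs only for PPARα −/− WY14643 against control (r 0.112 to 0.304), with no shared origin stated. The genes most like Mt1 and Mt2 were the 5 with the highest r by each of 2 measures. In lists, the 3 called members with the largest change were candidates for naming. The scripts were tested on simulated data. Members and lists were chosen with earlier results of these data known.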

Additional observations from a re-analysis of the deposited data

Results flagged for a closer look

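The change with WY14643 differed between genotypes by a test of the difference itself, as given in the report, by 3.65 for Mt1 (1422557_s_at), 5.57 for Mt2 and 4.59 for Mt1 (1451612_at), all log2 and PPARα −/− minus WT. Single mice stood apart from their group in 1451612_at. Among 4 WT mice given C18:2, replicate 1 was lowest at 5.18 with its nearest neighbour at 7.84, a gap of 0.881 of the range of the group. Among 4 WT mice given WY14643, replicate 4 was highest at 4.2 with its nearest neighbour at 3.23, a gap of 0.946 of the range, where all 4 were under the 10th percentile of their array. In all, 2 of 57 tests of a group for such a mouse were positive, and chance gives about 1 in 20.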

How the results depend on the processing

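No Mt1 or Mt2 value changed sign in a called result under any setting run. Against control, 503 of 528 values under other settings and 404 of 423 with 1 mouse left out kept their side of the threshold. The falls in WT mice did not hold when only the groups compared were fitted, at -2.966 for Mt1 and -4.223 for Mt2 with WY14643 (adjusted p = 0.0599 and 0.0744) and -2.058 and -3.012 with fenofibrate (0.287 and 0.292). Exact permutation (adjusted p = 0.183, 0.218, 0.286 and 0.286) could not have passed with 3 controls. The smallest adjusted p open to it lay between 0.0635 and 0.0914 for these 4 values of Mt1 and Mt2. Its unadjusted p also lay above the smallest possible, with overlapping groups. With WY14643 it was 0.0571 and 0.0857 (smallest 0.0286), and with fenofibrate 0.143 and 0.161 (smallest 0.0179). With the replicate block the falls were -3.176 and -4.643 with WY14643 (adjusted p = 0.128 and 0.144) and -2.159 and -3.098 with fenofibrate (0.468 and 0.46), where the samples share only a number. For PPARα −/− WY14643 the block gave 0.6881 and 1.347, not called either way. The fenofibrate fall of Mt1 also missed with array weights (-1.822, adjusted p = 0.0509) and median centring (-2.046, adjusted p = 0.0505). In PPARα −/− mice, exact permutation brought Mt1 past the threshold for C18:3 (1.424), C10:0 (1.255) and C18:2 (1.304, adjusted p = 0.0423), and the fit of the groups compared did so for Mt2 with C18:3 (1.913, adjusted p = 0.0336). The causes were not tested.

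With 1 mouse left out, WY14643 in WT mice ranged from -4.203 to -1.989 for Mt1 and from -6.086 to -2.83 for Mt2, fenofibrate from -3.295 to -1.081 and from -4.875 to -1.618, and C22:6 from -2.479 to -0.2645 for Mt1. The genotype difference ranged from 2.677 to 4.891 for Mt1, 4.177 to 7.434 for Mt2 and 3.747 to 6.17 for Mt1 (1451612_at) with WY14643, from 1.001 to 3.215 for Mt1 and 1.452 to 4.709 for Mt2 with fenofibrate, and from 1.075 to 3.289 for Mt1 and 1.474 to 4.731 for Mt2 with C22:6. Genes that fell ranged, without each WT control, from 7 to 18 with WY14643 and 1 to 15 with fenofibrate for interleukin-6 and acute phase, and from 1 to 5 and 0 to 3 for zinc and metal response. For lists, leaving out these controls was chosen after seeing the data. The direct contrast of PPARα −/− with WT mice after C20:5, which is not the difference in response, was less stable. For Mt2 it missed when only the groups compared were fitted (2.937, adjusted p = 0.0558) and without 4 of the 9 mice in turn. Signal near background limits 1451612_at, and Mt2 in 2 of 4 WT mice given WY14643 and 2 of 5 given fenofibrate.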
